A study of Mus musculus with 18 samples.

Results

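The Schlafen genes are a family of vertebrate genes, first described in mouse thymocytes, whose products restrain growth and viral replication. In the mouse most of them lie side by side in a cluster on chromosome 11. Members are called short (Slfn1 and Slfn2), intermediate (Slfn3 and Slfn4) or long (Slfn5, Slfn8 and Slfn9), and the long ones carry a helicase-like region at the carboxyl end that the others lack. Many members are induced by type I interferon, which acts through its receptor on transcription factors that bind the interferon-stimulated response element. In marrow they are expressed in cells of the myeloid and lymphoid lineages, where Slfn2 and Slfn4 are the members best studied in mice.

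All 7 genes were annotated on the array, by 11 probesets that each named a single family member, of 45101 probesets in all. Slfn5 had 3 such probesets, Slfn1 and Slfn9 had 2 each, and Slfn2, Slfn3, Slfn4 and Slfn8 had 1 each. One further probeset was annotated to both Slfn4 and Slfn3 and was left out of the family, although its values are given beside those of Slfn4. Of the 11 probesets, 9 passed a filter on low signal, a mean of at least 3.30 over all arrays, and these 9 stood for 6 genes. The only probeset of Slfn3 and the dimmer one of Slfn1 did not pass.

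Total RNA from flash-frozen marrow cells of C57Bl6 mice was measured on 18 Affymetrix arrays, 1 per mouse. CCAT2 is a long non-coding RNA that exists as a G and a T allele, and transgenic mice overexpressed it throughout the body. The question set by the labels was how marrow of mice with and without a feature called DRAI, a term the labels do not spell out, differed from wild-type marrow and from each other. The promoter behind the transgene, the number of founder lines and the ages and sexes of the mice are not given in the labels. The DRAI+ group was 6 mice labelled as overexpressing CCAT2-GT. The DRAI- group pooled 4 mice overexpressing CCAT2-G and 4 mice overexpressing CCAT2-T. The 4 WT mice carried no transgene by their label. Replicates were labelled biological, and values are log2 intensities, so that a difference of 1 is a factor of 2.

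The arrays had medians between 4.27 and 4.40, correlated with each other at 0.955 to 0.996, and held no identical pair. Of the arrays, 5 stood apart by a narrow spread of all probesets (interquartile range of 2.90 to 3.07 against 3.15 to 3.36 on the other 13), and they were 0 of the 6 DRAI+ arrays, 3 of the 8 DRAI- arrays and 2 of the 4 WT arrays. The 3 arrays of CCAT2-GT replicates 4 and 6 and WT replicate 4 held the highest signal of marrow stroma, bone and endothelium genes. Xist, the transcript of the inactive X chromosome, was at 10.7 to 12.0 on 3 of the 6 DRAI+ arrays, 1 of the 8 DRAI- arrays and 0 of the 4 WT arrays, against 3.52 to 4.05 on the others. Without those 4 arrays Slfn5 in DRAI+ minus WT was at 0.92 (SE 0.36). The marker lists of marrow cells were present, with 11 of 11 annotated neutrophil genes, 11 of 11 B-cell genes, 10 of 11 erythroid genes and 9 of 9 megakaryocyte genes above the filter. The transgene itself was not analysed here.

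The 3 long members are shown first by their promoters, because these hold the letters of the interferon-stimulated response element. Sequences are from RefSeq on GRCm38.p6, from 250 bases before to 50 bases after the start of the gene, 5′ to 3′ on the gene's own strand, and all 7 members were matched in that table by symbol. Capitals mark the core of the element, which is TTTC, any 2 bases and a second TTTC, searched on both strands. The Slfn5 window is chr11:82951852-82952151 on the plus strand, the Slfn8 window is chr11:83020761-83021060 on the minus strand, and the Slfn9 window is chr11:82991781-82992080 on the minus strand.
Slfn5: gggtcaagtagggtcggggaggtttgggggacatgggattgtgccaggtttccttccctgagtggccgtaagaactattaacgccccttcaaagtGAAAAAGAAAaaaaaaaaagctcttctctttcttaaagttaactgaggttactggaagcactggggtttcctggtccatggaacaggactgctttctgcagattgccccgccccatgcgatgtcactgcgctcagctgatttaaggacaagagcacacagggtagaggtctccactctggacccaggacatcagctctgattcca
Slfn8: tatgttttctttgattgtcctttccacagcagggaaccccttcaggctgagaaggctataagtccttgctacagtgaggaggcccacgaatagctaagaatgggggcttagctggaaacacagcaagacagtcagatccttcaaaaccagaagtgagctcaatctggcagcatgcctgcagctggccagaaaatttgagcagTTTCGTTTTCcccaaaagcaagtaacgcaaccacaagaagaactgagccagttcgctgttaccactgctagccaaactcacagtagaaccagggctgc
Slfn9: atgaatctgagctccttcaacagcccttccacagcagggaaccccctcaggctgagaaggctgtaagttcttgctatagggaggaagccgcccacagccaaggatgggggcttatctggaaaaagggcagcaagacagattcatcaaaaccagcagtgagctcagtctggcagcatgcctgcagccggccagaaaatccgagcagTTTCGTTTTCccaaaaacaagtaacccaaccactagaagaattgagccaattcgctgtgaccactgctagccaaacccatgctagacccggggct
The core lay 155 to 146 bases upstream of the start in Slfn5, there on the minus strand, 48 to 39 bases upstream in Slfn8 and 45 to 36 bases upstream in Slfn9. It was found in 3 of the 7 Schlafen promoters, against 3.44% of 32851 promoters of the same length. Slfn8 has 2 starts in the table, and the other one holds the core too, 136 to 127 bases upstream. The Slfn8 and Slfn9 windows were 80.5% identical when aligned, while the other 20 pairs of Schlafen promoters were 41.9% to 49.4% identical. Such a match of letters is a description and not a site or a cause. The core of the interferon-gamma activated site, TTCNNNGAA, which reads the same way on both strands, was in 0 of the 7 windows and in 8.30% of all promoters.

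Slfn5, a long member studied in mouse and human cells as a transcriptional regulator and antiviral factor, was the family member with the largest difference between the DRAI+ and WT mice. Its brightest probeset (1456288_at) read 4.94 at the lowest, 5.25 at the median and 5.84 at the highest of the 6 DRAI+ mice. The 4 CCAT2-G mice read 3.90, 4.48, 5.66 and 4.95, and the 4 CCAT2-T mice 4.52, 4.27, 5.18 and 4.63. The 4 WT mice read 3.65, 4.85, 4.93 and 4.34. Every DRAI+ mouse was above the highest WT mouse, though the lowest DRAI+ value (4.94) was next to the highest WT value (4.93), and the CCAT2-G and CCAT2-T mice overlapped both. Groups that do not overlap in this direction were found for 0.312% of the 26001 probesets tested (81).

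Slfn5 averaged 5.37 ± 0.38 in DRAI+ mice (SD, n = 6) and 4.44 ± 0.59 in WT mice (SD, n = 4), a log2 difference of 0.92 (SE 0.30, 95% interval 0.30 to 1.55). In limma the unadjusted p was 0.00591 and the Benjamini-Hochberg adjusted p over all 26001 probesets was 1.00, so the difference did not pass the test. Against the DRAI- mice, which averaged 4.70 ± 0.55 (SD, n = 8), the DRAI+ mice were higher by 0.66 (SE 0.25, 95% interval 0.14 to 1.19; limma adjusted p = 0.465). The DRAI- mice were 0.26 above WT (SE 0.28). These 3 comparisons share their mice, so that they are not separate evidence. With limma's array weights, which count less the arrays that deviate more, the DRAI+ minus WT difference was 0.96 with an adjusted p of 0.0496. It then passed, as the only 1 of the 9 tested Schlafen probesets. In that setting 645 of all 26001 probesets passed, against 0 in the main fit. Over all other settings the adjusted p of this difference lay between 0.644 and 1.00. The difference was 0.73 (SE 0.31) on the arrays of wider spread alone and 0.61 (SE 0.29) when array spread, narrow or wider, was a block, and DRAI+ minus DRAI- was 0.38 and 0.43 in those settings.

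The other 2 probesets of Slfn5 differed in the same direction by less. Probeset 1442640_at averaged 4.96 ± 0.44 in DRAI+, 4.74 ± 0.38 in DRAI- and 4.48 ± 0.39 in WT mice, and it was 0.48 higher in DRAI+ than in WT (SE 0.24). Probeset 1458458_at averaged 3.72 ± 0.33, 3.45 ± 0.38 and 3.36 ± 0.28 in the same groups, a difference of 0.37 between DRAI+ and WT (SE 0.21). Neither passed the test, and the DRAI+ mice overlapped the WT mice on both. Across the 18 mice the brightest probeset correlated with these at 0.69 and 0.41. The gene Slfn5os, named here after its values were seen, had a separate probeset just above the filter (mean of 3.42 over all arrays). That probeset averaged 3.43 ± 0.10 in DRAI+, 3.48 ± 0.11 in DRAI- and 3.30 ± 0.18 in WT mice, so the DRAI+ mice were not the highest.

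Slfn9, another long member and the neighbour of Slfn5 and Slfn8 in the cluster, differed the opposite way on its brighter probeset (1436472_at). It read 4.99 at the lowest, 5.49 at the median and 5.96 at the highest of the DRAI+ mice. The CCAT2-G mice read 5.59, 5.60, 5.87 and 5.93, the CCAT2-T mice 5.57, 6.10, 6.09 and 5.90, and the WT mice 5.77, 5.82, 5.74 and 5.71. The WT mice lay within a narrow band, with 5 of 6 DRAI+ mice below its lowest value and 1 above its highest. The DRAI- mice lay outside this band as well, 3 of 8 below it and 5 of 8 above it.

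The Slfn9 mean was 5.48 ± 0.33 in DRAI+ mice, 5.83 ± 0.22 in DRAI- mice and 5.76 ± 0.04 in WT mice (SD, n = 6, 8 and 4). DRAI+ was 0.35 below DRAI- (log2 difference -0.35, SE 0.13, 95% interval -0.63 to -0.07; limma unadjusted p = 0.0155, adjusted p = 0.465). Against WT the difference was -0.28 (SE 0.16, unadjusted p = 0.0914), and CCAT2-GT minus CCAT2-T was -0.43 (SE 0.16, limma adjusted p = 0.284). None of these passed. The second Slfn9 probeset (1458803_at) did not follow the first. It averaged 3.81 ± 0.22 in DRAI+, 3.81 ± 0.30 in DRAI- and 3.70 ± 0.18 in WT mice, and it correlated with the brighter one at -0.22 across the 18 mice. The mature B-cell list averaged 7.25 ± 0.66 in DRAI+, 8.44 ± 0.73 in DRAI- and 8.16 ± 0.99 in WT mice. Of its 11 genes 10 were lower in DRAI+ than in DRAI-, while 51.1% of all probesets were higher. The part of this in the Slfn9 difference was not tested.

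**Figure D1:**
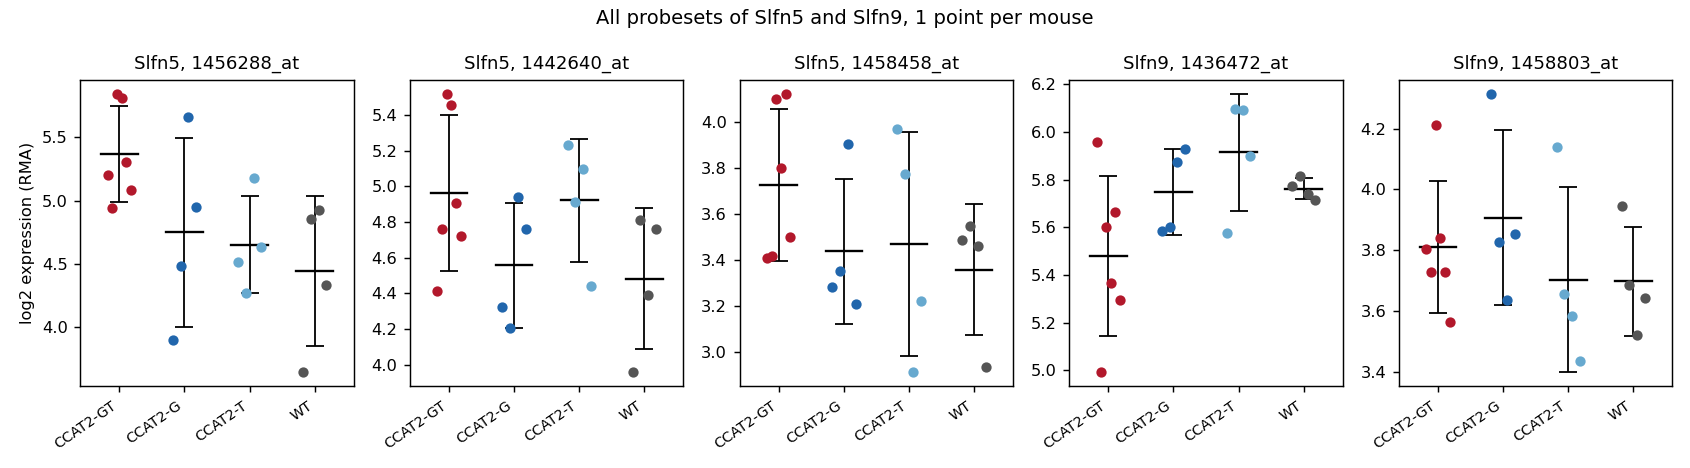
log2 expression of the 3 Slfn5 and 2 Slfn9 probesets, 1 point per mouse, by group, with the mean and SD as bars. The CCAT2-GT mice lie above all WT mice on 1456288_at of Slfn5 (4.94 to 5.84 against 3.65 to 4.93) and mostly below them on 1436472_at of Slfn9, while the other probesets overlap.

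Slfn8, a long member with a described role in T-cell responses in mice, was the third gene with the element core in its promoter. The DRAI+ mice read 5.89 at the lowest, 6.66 at the median and 7.49 at the highest. The CCAT2-G mice read 6.91, 6.46, 6.29 and 7.10, the CCAT2-T mice 6.79, 6.85, 7.18 and 6.66, and the WT mice 6.78, 6.93, 6.21 and 5.56. All groups overlapped, and the spread was widest in WT (SD 0.62) and DRAI+ (SD 0.57).

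Slfn8 averaged 6.62 ± 0.57 in DRAI+, 6.78 ± 0.30 in DRAI- and 6.37 ± 0.62 in WT mice. The differences were 0.25 for DRAI+ minus WT (SE 0.28, 95% interval -0.34 to 0.84), 0.41 for DRAI- minus WT (SE 0.27) and -0.16 for DRAI+ minus DRAI- (SE 0.24). None passed the test. The CCAT2-T mice were the highest group at 6.87 ± 0.22, 0.50 above WT (SE 0.31, limma adjusted p = 0.905).

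The short and intermediate members share other letters. The longest stretch common to the promoters of Slfn1, Slfn2, Slfn3 and Slfn4 was 9 bases, ACTTCCTGG, shown in capitals. It was found by comparing these same promoters, so its presence in all 4 follows from the search, and it occurred on either strand in 0.843% of all promoters. The windows of the 3 members that gave signal are chr11:83116570-83116869, chr11:83064862-83065161 and chr11:83174936-83175235, all on the plus strand of GRCm38.p6 in RefSeq.
Slfn1: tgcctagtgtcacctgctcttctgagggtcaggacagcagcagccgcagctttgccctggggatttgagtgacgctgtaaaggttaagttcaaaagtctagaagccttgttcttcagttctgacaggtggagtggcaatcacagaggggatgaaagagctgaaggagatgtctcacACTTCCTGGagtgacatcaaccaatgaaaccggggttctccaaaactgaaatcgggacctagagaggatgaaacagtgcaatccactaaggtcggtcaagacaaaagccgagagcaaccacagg
Slfn2: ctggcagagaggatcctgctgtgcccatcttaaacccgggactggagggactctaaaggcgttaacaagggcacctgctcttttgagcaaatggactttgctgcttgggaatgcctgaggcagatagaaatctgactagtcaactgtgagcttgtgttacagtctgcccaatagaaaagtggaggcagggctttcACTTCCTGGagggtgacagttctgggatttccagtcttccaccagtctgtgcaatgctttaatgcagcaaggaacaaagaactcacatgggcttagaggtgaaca
Slfn4: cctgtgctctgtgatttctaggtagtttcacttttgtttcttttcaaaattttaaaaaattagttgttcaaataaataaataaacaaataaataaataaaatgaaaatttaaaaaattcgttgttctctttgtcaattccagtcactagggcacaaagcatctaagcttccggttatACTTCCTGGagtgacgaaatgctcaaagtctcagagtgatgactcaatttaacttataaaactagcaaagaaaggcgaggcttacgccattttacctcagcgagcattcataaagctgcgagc
The stretch began 74 bases upstream of the start in Slfn1, 55 in Slfn2, 73 in Slfn4 and 42 in Slfn3. In Slfn1, Slfn2 and Slfn4 it ran on to 11 shared bases, ACTTCCTGGAG. None of these 4 windows held the core of the interferon-stimulated response element, which says only that those letters are not in this window.

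Slfn4, an intermediate member expressed in mouse neutrophils, monocytes and macrophages and induced there by type I interferon, varied mainly between mice of the same group. The DRAI+ mice read 9.83 at the lowest, 11.32 at the median and 11.68 at the highest. The CCAT2-G mice read 10.35, 10.45, 11.61 and 10.51, the CCAT2-T mice 10.60, 11.15, 11.96 and 11.24, and the WT mice 10.52, 10.90, 11.25 and 10.31. Of the DRAI+ mice 3 were above the highest WT mouse and 1 was below the lowest.

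Slfn4 averaged 11.10 ± 0.70 in DRAI+, 10.98 ± 0.60 in DRAI- and 10.74 ± 0.41 in WT mice. DRAI+ minus WT was 0.35 (SE 0.35, 95% interval -0.38 to 1.08), and DRAI- minus WT was 0.24 (SE 0.33). The allele groups averaged 10.73 ± 0.59 for CCAT2-G and 11.24 ± 0.56 for CCAT2-T, a difference of -0.51 (SE 0.38, limma adjusted p = 0.799). The probeset shared with Slfn3 averaged 8.32 ± 0.88 in DRAI+, 7.83 ± 0.86 in DRAI- and 7.73 ± 0.71 in WT mice. It correlated with the Slfn4 probeset at 0.90 and with the Slfn3 probeset at 0.30, and the annotation does not assign its signal to either gene.

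Slfn2, a short member that keeps mouse T cells quiescent, spanned a smaller range. The DRAI+ mice read 9.61 at the lowest, 10.32 at the median and 10.86 at the highest. The CCAT2-G mice read 9.79, 9.72, 10.86 and 9.92, the CCAT2-T mice 10.24, 9.92, 10.83 and 10.54, and the WT mice 9.79, 10.20, 10.49 and 10.00. All 4 groups overlapped. Means were 10.29 ± 0.40 in DRAI+, 10.23 ± 0.46 in DRAI- and 10.12 ± 0.30 in WT mice, with differences of 0.17 (SE 0.24, 95% interval -0.34 to 0.68) for DRAI+ minus WT and 0.07 (SE 0.20) for DRAI+ minus DRAI-.

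Slfn1, the other short member, which slowed thymocyte growth when expressed in mice, had the widest spread of the family (lowest 6.66, highest 9.19 over the 18 mice). Both extremes were DRAI+ mice, whose median was 7.87. The CCAT2-G mice read 7.87, 7.68, 8.41 and 7.30, the CCAT2-T mice 7.87, 8.38, 7.99 and 8.82, and the WT mice 7.99, 8.48, 7.88 and 6.88. The groups overlapped throughout. Slfn1 averaged 7.88 ± 0.82 in DRAI+, 8.04 ± 0.48 in DRAI- and 7.81 ± 0.67 in WT mice, a DRAI+ minus WT difference of 0.07 (SE 0.38, 95% interval -0.72 to 0.86). Its dimmer probeset (1447614_at), below the filter, averaged 2.54 ± 0.13, 2.59 ± 0.14 and 2.42 ± 0.14 in the same groups and is given without a test.

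Slfn3, the other intermediate member, studied in mouse T cells, was at the bottom of the array's range. Its probeset averaged 2.42 ± 0.17 in DRAI+, 2.28 ± 0.18 in CCAT2-G, 2.23 ± 0.07 in CCAT2-T and 2.48 ± 0.33 in WT mice. That lay at the 7.50th percentile of all probesets, below the filter, so no difference of Slfn3 is read here. Of relatives outside the 7 genes, the pseudogene Slfn10-ps was also below the filter (2.76 ± 0.26 in DRAI+ and 2.81 ± 0.23 in WT mice). The more distant Slfnl1 had a DRAI+ minus WT difference of -0.09 (SE 0.16). Slfn14 had no probeset annotated to it alone, so it was not analysed here.

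**Figure D2:**
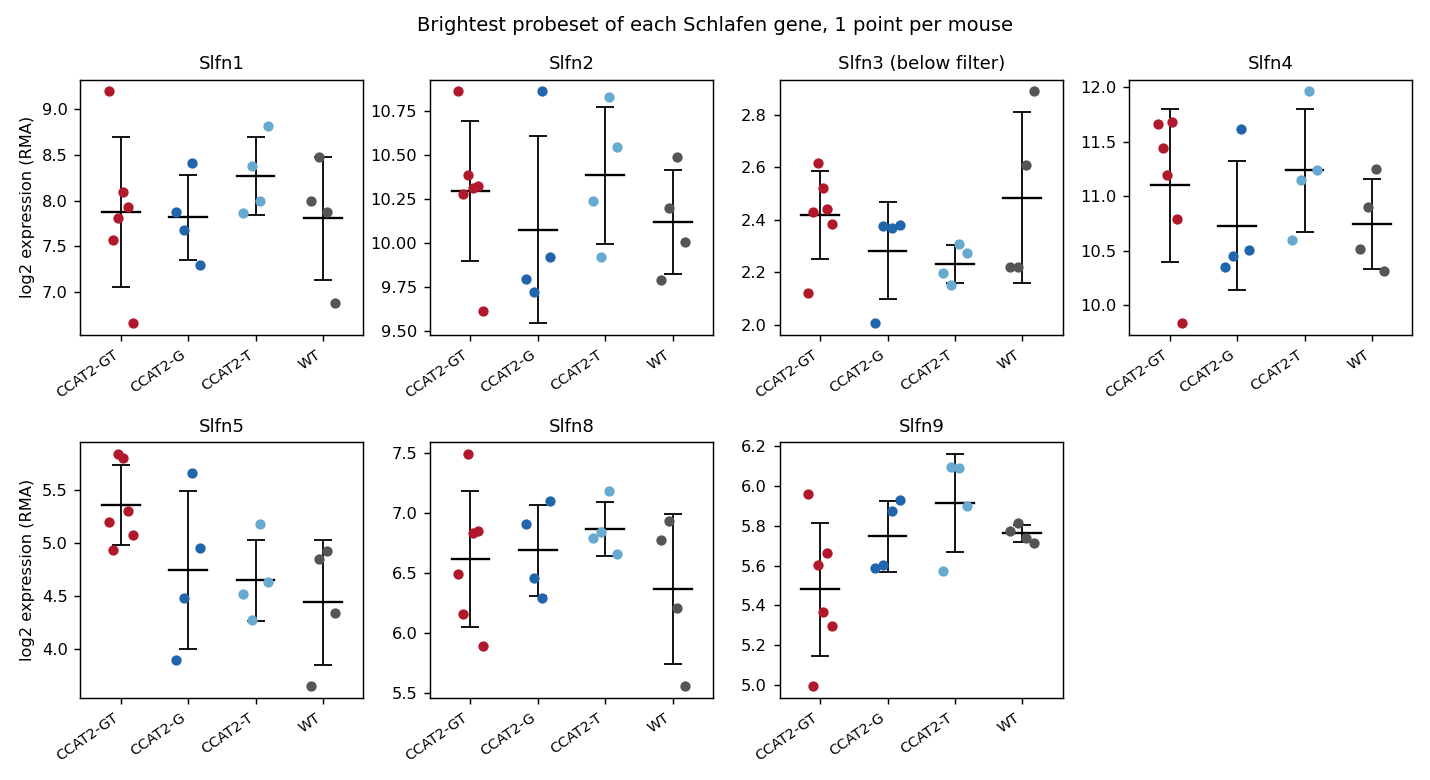
log2 expression of the brightest probeset of each Schlafen gene, 1 point per mouse, in CCAT2-GT, CCAT2-G, CCAT2-T and WT mice, with the mean and SD as bars and a separate axis per gene. The CCAT2-GT mice overlap the WT mice for every gene except Slfn5, and Slfn3 lies below the filter.

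Across the family, 0 of the 9 tested Schlafen probesets passed an adjusted p under 0.05 in limma for DRAI+ minus WT, against 0% (0) of all 26001. At an unadjusted p under 0.05 it was 1 of 9, against 2.43% of all probesets (633). For DRAI- minus WT the adjusted count was 0 of 9 against 0%, and the unadjusted one 0 of 9 against 1.37% (357). For DRAI+ minus DRAI- the adjusted count was 0 of 9 against 0%, and the unadjusted one 2 of 9 (Slfn5 and Slfn9) against 9.91% (2577). In a bulk sample, fewer cells of a type and less RNA per cell cannot be told apart.

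Most Schlafen differences from WT were above 0 without passing the test. For DRAI+ minus WT 8 of 9 probesets were above 0, against 50.8% of all, with a median of 0.25 for the Schlafen probesets and 0.00 for all 26001. For DRAI- minus WT 9 of 9 were above 0, against 48%, with medians of 0.24 and -0.01. The same 4 WT mice stand in both counts. For DRAI+ minus DRAI- 6 of 9 were above 0, against 51.1%, with medians of 0.07 and 0.01. The probesets of a gene, and the genes that varied together, are not independent of each other.

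**Figure D3:**
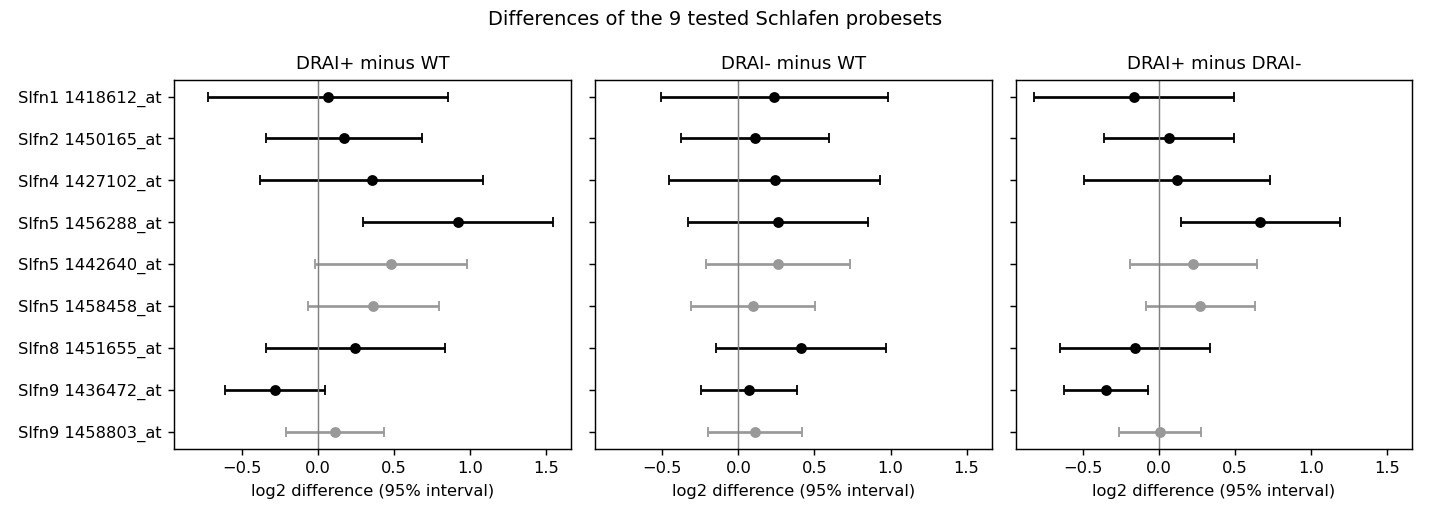
log2 differences of the 9 tested Schlafen probesets with 95% intervals from limma, in DRAI+ minus WT, DRAI- minus WT and DRAI+ minus DRAI-; black marks the brightest probeset of a gene and grey the others. The intervals of 1456288_at of Slfn5 (0.30 to 1.55 and 0.14 to 1.19) and, in DRAI+ minus DRAI-, of 1436472_at of Slfn9 (-0.63 to -0.07) leave out 0, before adjustment for the number of probesets.

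No Schlafen difference between the 2 alleles passed the test. Of the 9 Schlafen probesets, 0 passed for CCAT2-G minus CCAT2-T (0% of all by limma's adjusted p), and 0 of 9 had an unadjusted p under 0.05, against 7.02% of all (1826). Of the 9, 2 were above 0, against 51.2% of all. The largest of these differences among the brightest probesets were -0.51 for Slfn4 and -0.45 for Slfn1 (SE 0.41, 95% interval -1.31 to 0.41). Against WT, 0 of 9 had an unadjusted p under 0.05 for CCAT2-G, against 1.53% of all (397), and 0 of 9 for CCAT2-T, against 4.15% (1080), with 0% of all passing the adjusted test in both. Above 0 were 6 of 9 for CCAT2-G minus WT, against 51.8% of all, and 9 of 9 for CCAT2-T minus WT, against 48.6%. At an unadjusted p under 0.05, CCAT2-GT minus CCAT2-G had 0 of 9 member probesets against 5% of all (1301), and CCAT2-GT minus CCAT2-T had 2 of 9 (Slfn5 and Slfn9) against 14% (3631), again with 0% passing the adjusted test.

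Ordered from the highest to the lowest group mean of the brightest probeset, Slfn1 ran from CCAT2-T through CCAT2-GT and CCAT2-G to WT. Slfn2 and Slfn4 had one order, CCAT2-T, CCAT2-GT, WT and CCAT2-G. Slfn5 ran CCAT2-GT, CCAT2-G, CCAT2-T and WT. Slfn8 ran CCAT2-T, CCAT2-G, CCAT2-GT and WT, and Slfn9 CCAT2-T, WT, CCAT2-G and CCAT2-GT. No pair of neighbours in these orders differed by limma's adjusted p (0.623 to 1.00).

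Between mice, most members varied more than other genes. The SD over all 18 mice was at the 96.5th percentile of tested probesets for Slfn1, the 96.4th for Slfn5, the 95.9th for Slfn4, the 92.2nd for Slfn8 and the 85.8th for Slfn2, but at the 64.6th for Slfn9. Slfn2 and Slfn4 varied together most closely (r = 0.86 over 18 mice, 0.89 on the 13 arrays of wider spread). Slfn1 correlated with Slfn4 at 0.65 and with Slfn2 at 0.62. Slfn5 correlated with Slfn2 at 0.59 and with Slfn4 at 0.54. Among the long members the values were lower, with r = 0.16 for Slfn5 and Slfn8, 0.34 for Slfn8 and Slfn9, and -0.13 for Slfn5 and Slfn9, although Slfn5 and Slfn8 reached 0.54 on the arrays of wider spread. These values are descriptions over mice that share groups and array spread.

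The genes whose values followed each member most closely were found among 13527 genes by Pearson's r over the 18 mice. For Slfn5 they were Ifi204 (0.94), Ifi207 (0.91) and Parp12 (0.90), where Ifi204 and Ifi207 belong to the interferon-inducible PYHIN family and Parp12 is an interferon-induced ADP-ribosyltransferase. For Slfn8 they were Mndal (0.91), Trim34a (0.90) and Ifi213 (0.88), of which Mndal and Ifi213 are genes of that family too. For Slfn2 they were Slc2a6 (0.95), Fgr (0.93), a myeloid Src-family kinase, and Fosl2 (0.93). For Slfn4 they were Fgr (0.91), Pcsk7 (0.91) and Prr13 (0.89). For Slfn1 they were Ppp1r18 (0.92), Lcp1 (0.91), the leukocyte plastin, and Zbtb42 (0.91), and for Slfn9 Tlr12 (0.82), Tpcn2 (0.80) and Stard3 (0.79).

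Each member was set against a mean log2 score of 42 interferon-stimulated genes, none of them a Schlafen gene, and of 9 cell-type marker lists, in 60 pairs over 18 mice with a permutation p of 100000 resamples for each and Benjamini-Hochberg adjustment over the 60. By r, 16 pairs had an adjusted permutation p under 0.05, and 13 of them also by Spearman's rho. Among them, Slfn1, Slfn2 and Slfn4 followed the neutrophil markers, Slfn8 the dendritic-cell markers, Slfn5 the monocyte markers, and Slfn5 and Slfn8 the interferon-stimulated genes. No pair with Slfn9 had an adjusted p under 0.05.

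For Slfn2 and the neutrophil list, r was 0.81 (permutation p = 3.0e-05, adjusted 0.0018) and rho 0.87 (adjusted permutation p = 0.0012). For Slfn1 r was 0.78 and rho 0.76 (permutation p = 0.00019 and 0.00043, adjusted 0.0034 and 0.0043), and for Slfn4 r was 0.76 and rho 0.82 (permutation p = 0.00028 and 0.0001, adjusted 0.0034 and 0.0024). Without the 2 mice farthest from the median score, r was 0.81 for Slfn2, 0.70 for Slfn1 and 0.77 for Slfn4. On the 13 arrays of wider spread it was 0.89, 0.84 and 0.77 in the same order. The neutrophil score itself averaged 11.63 ± 0.36 in DRAI+, 11.53 ± 0.32 in DRAI- and 11.58 ± 0.23 in WT mice. The same 3 members ran against the list of marrow stroma, bone and endothelium, with r = -0.77 for Slfn2, -0.72 for Slfn1 and -0.68 for Slfn4 (adjusted permutation p = 0.0034, 0.0050 and 0.0100), and -0.66, -0.49 and -0.50 in that order without the 2 farthest mice. Slfn1 also ran against the megakaryocyte list, at r = -0.61 (adjusted permutation p = 0.0335) and rho = -0.56 (adjusted permutation p = 0.0675).

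For Slfn8 and the dendritic-cell list, r was 0.81 and rho 0.80 (permutation p = 6.0e-05 and 0.00023, adjusted 0.0018 and 0.0034), 0.74 without the 2 farthest mice and 0.84 on the arrays of wider spread. The dendritic-cell list shares Bst2 with the interferon-stimulated genes, so those scores are not fully separate. Slfn8 also followed the T and NK cell list (r = 0.69, adjusted permutation p = 0.0089) and the B-cell list (r = 0.57, adjusted permutation p = 0.0492 by r and 0.0748 by rho). Slfn5 followed the monocyte and macrophage list at r = 0.76 and rho 0.77 (permutation p = 0.0004 and 0.00039, adjusted 0.0040 and 0.0043), at 0.69 without the 2 farthest mice, but at 0.50 on the arrays of wider spread. Slfn5 ran against the erythroid list at r = -0.69 (adjusted permutation p = 0.0080) and against the B-cell list at -0.61 (adjusted permutation p = 0.0341), the second at -0.31 on the arrays of wider spread.

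**Figure D4:**
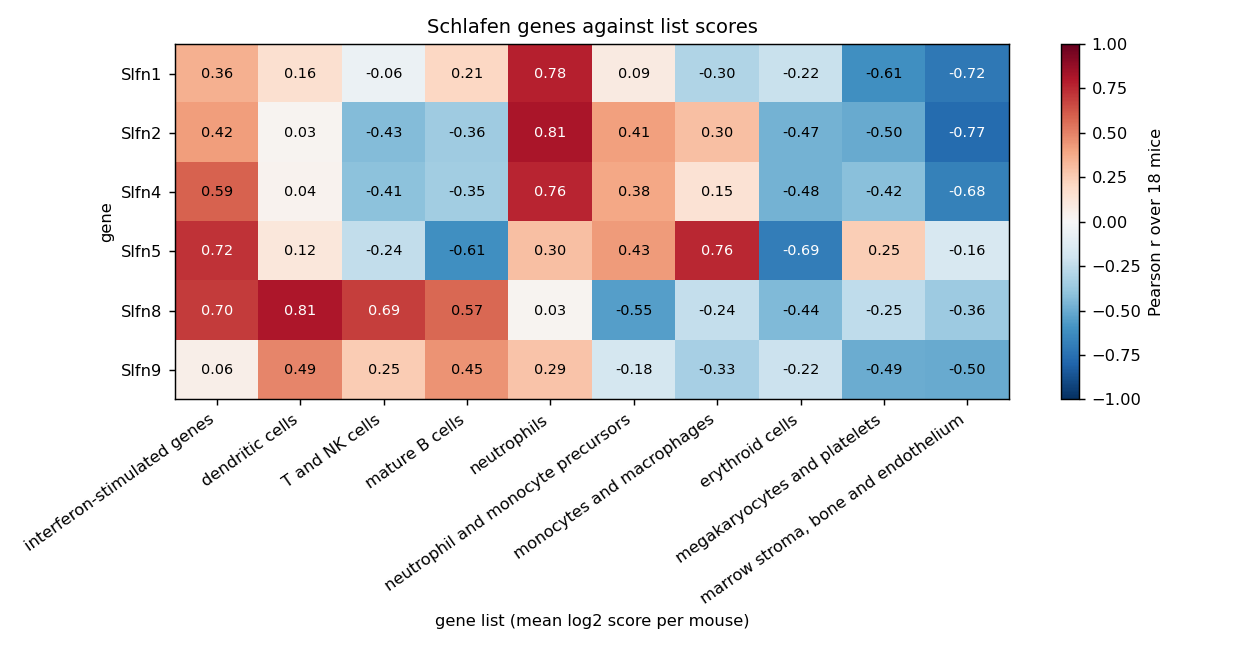
Pearson r over 18 mice between each tested Schlafen gene (its brightest probeset) and the mean log2 score of the interferon-stimulated genes and 9 marker lists; red is positive and blue negative. Slfn1, Slfn2 and Slfn4 have their highest values with neutrophils (0.76 to 0.81), Slfn8 with dendritic cells (0.81) and Slfn5 with monocytes and macrophages (0.76) and interferon-stimulated genes (0.72).

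With the interferon-stimulated genes, Slfn5 had r = 0.72 and rho 0.70 (permutation p = 0.00064 and 0.00161, adjusted 0.0050 and 0.0127). This was 0.54 without CCAT2-GT replicates 3 and 4, the 2 mice farthest from the median score, 0.79 on the arrays of wider spread and 0.64 when each mouse was taken as its deviation from the mean of its group. Slfn8 had r = 0.70 and rho 0.67 (permutation p = 0.00126 and 0.00314, adjusted 0.0080 and 0.0171), 0.67 without those 2 mice and 0.85 on the arrays of wider spread. Slfn4 had r = 0.59 (adjusted permutation p = 0.0414) and rho = 0.58 (adjusted permutation p = 0.0590), and for Slfn2 and Slfn1 r was 0.42 and 0.36.

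**Figure D5:**
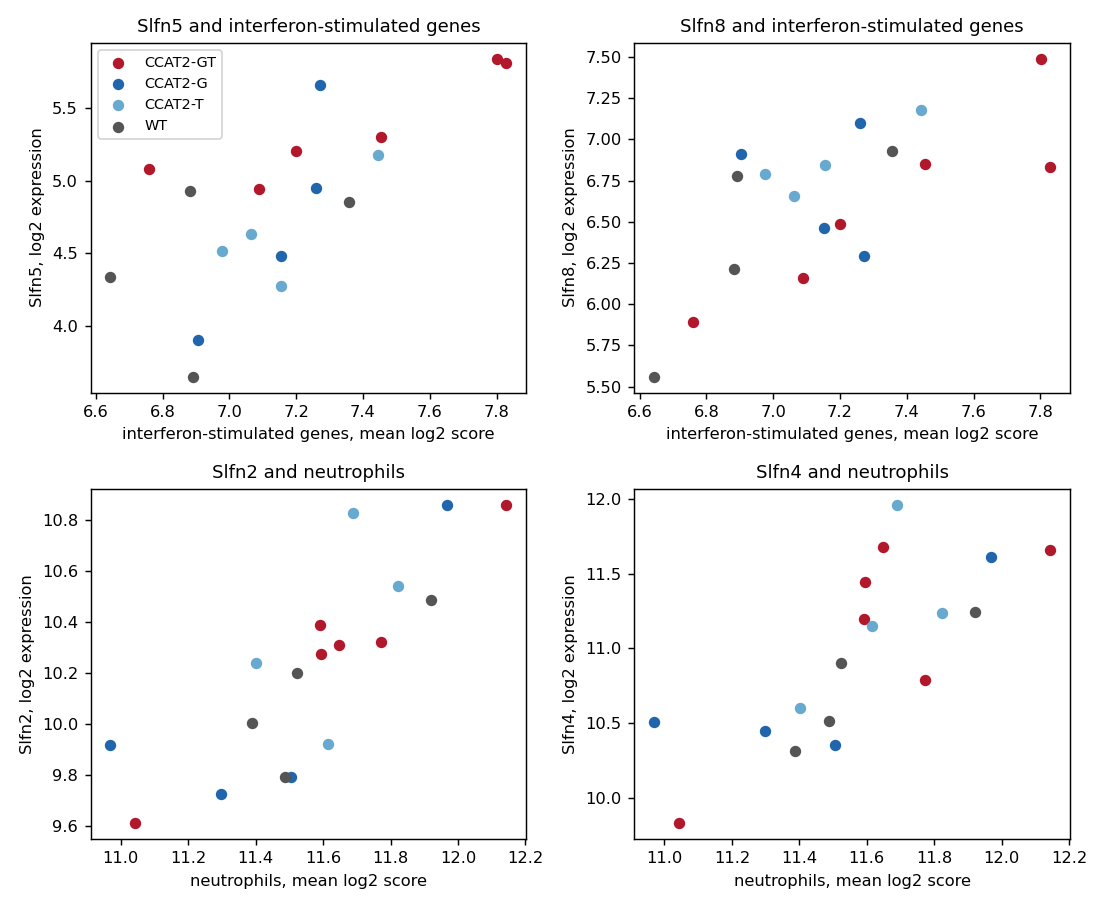
Each point is a mouse, with log2 expression of a Schlafen gene on the vertical axis and the mean log2 score of a gene list on the horizontal axis, for Slfn5 and Slfn8 against the interferon-stimulated genes and Slfn2 and Slfn4 against the neutrophil markers. CCAT2-GT replicates 3 and 4 have the highest interferon scores (7.80 and 7.83), and r is 0.81 for Slfn2 and 0.76 for Slfn4 with the neutrophil score.

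The interferon-stimulated genes as a list averaged higher in DRAI+ than in WT mice, as did Slfn5. Of 42 tested, 39 were higher in DRAI+ than in WT mice, against 50.8% of all probesets. Of these 0 passed the test and 14 had an unadjusted p under 0.05 (1.07% of all probesets were higher at that p). Their median difference was 0.38 against 0.00 for all probesets. The DRAI- mice were above the same WT mice too, for 35 of 42 genes against 48% of all probesets, with a median of 0.19. By allele it was 35 of 42 for CCAT2-G and 34 of 42 for CCAT2-T, against 51.8% and 48.6% of all. In DRAI+ minus DRAI- 33 of 42 were above 0, against 51.1% of all, with a median of 0.17. Of them 7 were higher at an unadjusted p under 0.05, against 4.75% of all. The score averaged 7.36 ± 0.42 (6.76 to 7.83) in DRAI+, 7.15 ± 0.17 (6.90 to 7.44) in DRAI- and 6.94 ± 0.30 (6.64 to 7.36) in WT mice, with all groups overlapping. Of the 42 genes, the 4 named next were picked for the smallest limma p in DRAI+ minus WT. That difference was 0.76 for Parp12 (SE 0.20), 1.23 for Oas1a (SE 0.35), an oligoadenylate synthetase, 0.86 for Ifi204 (SE 0.26) and 0.60 for Ifitm3 (SE 0.22), which blocks viral entry. In that order they averaged 6.19, 7.58, 4.88 and 11.04 in DRAI- and 5.94, 7.00, 4.76 and 10.72 in WT mice. Parp12 and Ifi204 are also among the genes most alike to Slfn5, so these are not separate observations. Beside the Slfn5 difference stands also the monocyte and macrophage list, at 8.26 to 8.75 in DRAI+, 7.34 to 8.64 in DRAI- and 7.59 to 8.30 in WT mice. Of its 10 genes, 9 were above 0 in DRAI+ minus WT, against 50.8% of all probesets. In DRAI+ minus DRAI- it was 10 of 10, against 51.1% of all. The part of these lists in the Slfn5 difference was not tested.

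Upstream of the family, 20 genes of interferon ligands, receptors and transducers were tested. In DRAI+ minus WT 14 were above 0, against 50.8% of all probesets, with 0 passing (0% of all) and a median of 0.04. In DRAI- minus WT 13 of 20 were above 0, against 48% of all, with a median of 0.08. The receptor chains read 0.00 for Ifnar1 (SE 0.16) and 0.15 for Ifnar2 (SE 0.17) in that comparison. Of the transcription factors of the interferon response, Irf9 was at 0.34 (SE 0.17) and Stat2 at 0.24 (SE 0.16), and Irf7, itself induced by interferon, at 0.44 (SE 0.31). Of the other interferon regulatory factors in the list, Irf1 was at 0.05 (SE 0.16), Irf2 at -0.04 (SE 0.18), Irf3 at -0.14 (SE 0.10) and Irf8 at -0.10 (SE 0.30). Tlr7, an endosomal RNA sensor, was at 0.48 (SE 0.20), Socs3, an inhibitor of cytokine signalling, at 1.08 (SE 0.44), and Myd88, the adaptor of Toll-like receptors, at 0.31 (SE 0.18). The highest Socs3 mean was that of the CCAT2-G mice, at 7.01 ± 0.14. It averaged 6.57 ± 0.63 in DRAI+, 5.87 ± 0.62 in CCAT2-T and 5.49 ± 0.99 in WT mice. The interferon genes Ifna4 and Ifng were below the filter, and Ifnb1 was at -0.08 (SE 0.18).

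In the RefSeq order of GRCm38.p6 the cluster runs Slfn5, Slfn9, Slfn8, Slfn10-ps, Slfn2, Slfn1, Slfn4, Slfn3 and Slfn14, with Unc45b and Nle1 before it and Ap2b1 among the genes after it. Of 9 genes listed from the flanks, 5 were tested. Their DRAI+ minus WT differences were between -0.17 for Nle1 (SE 0.13) and 0.05 for Ap2b1 (SE 0.11), and 0 of 5 had an unadjusted p under 0.05, against 2.43% of all probesets. In DRAI+ minus DRAI- 1 of 5 had one, against 9.91% of all probesets, which was Nle1, a ribosome assembly factor (-0.29, SE 0.11, limma unadjusted p = 0.0151, adjusted p = 0.465). Along the cluster, adjacent Slfn5 and Slfn9 lay on either side of 0 in DRAI+ minus DRAI- (0.66 and -0.35), and the next gene, Slfn8, was at -0.16.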

How the data were processed

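The data are 1 table of 45101 Affymetrix probesets on 18 arrays. The log2 values were made by the authors with RMA, per the submitters' processing notes, and the scale was read from the values (1.56 to 14.2). The software behind RMA, its version and its probe file were not given in the sources used here. RMA draws arrays towards one distribution, so a shift shared by most genes would not show. The log2 values were used as deposited by the authors. Precision is limited by the 18 arrays.

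Probesets took their symbol from the platform annotation: 34958 had 1 gene symbol, 932 several and 9211 none listed. Of those with 1 symbol, the 26001 (14505 genes) at or above the 30th percentile of mean signal (3.30) were tested. Groups came from the labelled genotype and DRAI status. limma 3.58.1 (R 4.3.3) was fitted with a mean-variance trend to 3 groups (DRAI+, DRAI-, WT) or, for the alleles, to 4 groups. Benjamini-Hochberg adjustment was over all tested probesets, with a threshold of 0.05. The fit was also run on simulated data with independent noise for each probeset. Such data hold no difference in array spread and no genes that vary together, so that run could not show how these affect the fit. SDs are over mice. Deviations from group means of same-numbered mice correlated above 0.1 in all 4 pairs of CCAT2-T and WT (0.22 to 0.50). The labels name no shared litter or batch, and the main comparisons were fitted without pairing. A replicate block was used only as an alternative. List scores are the mean of each list's genes named on the array, 1 brightest probeset per gene. Genes below the filter count in the scores though they were not tested. The list of marrow stroma, bone and endothelium, for example, had 18 named and 15 tested genes. Correlations were tested by permutation (scipy 1.17.1), and promoters were aligned with Biopython 1.88.

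The members and gene lists were chosen with earlier results of these data known. All member probesets are given, and the results turn on the brightest probeset of each. Also named are the 3 genes most alike to each member, the 4 genes of smallest p in DRAI+ minus WT of each interferon list, Irf7, Irf9 and Stat2, and genes of the flanks; Ifnar1, Ifnar2, Ifnb1, Irf1, Irf2, Irf3 and Irf8 were named after their values were seen. Alternatives were the filter, 1 probeset per gene, median centring, moderation, array weights, the groups fitted, a replicate block, the narrow arrays as a block or left out, the stroma-rich or Xist-high arrays left out, and each mouse left out.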

Additional observations from a re-analysis of the deposited data

Results flagged for a closer look

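Of 105 groups of 4 to 8 samples examined for a value far from the others of its group, 5 held one, and chance gives about 1 in 20. In the CCAT2-G group replicate 3 was the highest mouse for Slfn2, at 10.86 with the next mouse at 9.92, and also for Slfn4, at 11.61 with the next at 10.51. CCAT2-G replicate 1 was the lowest for Slfn3, at 2.00 with the next at 2.37, both below the filter. WT replicate 4 was the lowest for probeset 1458458_at of Slfn5, at 2.94 with the next at 3.46. WT replicate 4 was also the highest of its group for the megakaryocyte and platelet score, at 9.12 with the next at 7.71.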

How the results depend on the processing

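Of 36 differences of the 6 tested members (6 comparisons), 26 kept their sign in all 12 settings other than leaving out a mouse, and in none of those settings, nor in the 18 that left out 1 mouse, did a member pass the adjusted threshold, except Slfn5 in DRAI+ minus WT with array weights (0.96). With array weights 645 of the 26001 tested probesets were called in DRAI+ minus WT, 1 of them a Schlafen probeset, and 2 in CCAT2-G minus WT. Slfn1 was then at -0.26 in DRAI+ minus WT, -0.18 in DRAI- minus WT and -0.51 in CCAT2-G minus WT, and Slfn8 at -0.11 in CCAT2-G minus WT. With the narrow arrays as a block DRAI+ minus DRAI- was -0.062 for Slfn2 and -0.0038 for Slfn4, and CCAT2-G minus CCAT2-T was -0.061 for Slfn5. On the arrays of wider spread DRAI+ minus DRAI- was -0.080 for Slfn2 and -0.054 for Slfn4, and CCAT2-G minus WT was 0.077 for Slfn4 and 0.074 for Slfn9. Without the 3 stroma-rich arrays Slfn1 was at -0.073 in DRAI- minus WT, 0.083 in DRAI+ minus DRAI- and -0.30 in CCAT2-G minus WT. The cause of these changes was not tested.

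Leaving out 1 mouse at a time, Slfn1 ran over -0.24 to 0.31 in DRAI+ minus WT, -0.073 to 0.46 in DRAI- minus WT, -0.43 to 0.077 in DRAI+ minus DRAI- and -0.30 to 0.23 in CCAT2-G minus WT. Slfn2 ran over -0.0020 to 0.23, -0.047 to 0.20 and -0.31 to 0.075 in the last 3 of these. In CCAT2-G minus WT Slfn4 ran over -0.31 to 0.15 and Slfn9 over -0.074 to 0.040. Slfn5 ran over -0.0066 to 0.42 in DRAI- minus WT, -0.055 to 0.37 in CCAT2-T minus WT and -0.21 to 0.38 in CCAT2-G minus CCAT2-T, and Slfn8 over -0.022 to 0.43 in DRAI+ minus WT. In DRAI+ minus WT Slfn5 stayed between 0.66 and 1.09. Over all genes, 0 to 98 probesets were called in DRAI+ minus DRAI-, 98 of them without CCAT2-G replicate 3.

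Deviations of 24 same-numbered pairs correlated at -0.32 to 0.66 (median 0.09), 12 of 24 above 0.1. Of 18 mice, 7 correlated best with their own number, and the numbers were not taken as pairing in the main fits. Of the pairs, 4 of 4 between CCAT2-T and WT and 3 of 4 between CCAT2-G and CCAT2-T were above 0.1, and the 5 narrow arrays were all replicate 1 or 2 of WT, CCAT2-G or CCAT2-T. The replicate block changed no call in CCAT2-T minus WT, with 0 probesets called. With the replicate block Slfn5 was at 1.01 in DRAI+ minus WT with no call, and Slfn1 at 0.12 in DRAI+ minus DRAI-, against -0.17 without it. The 16 correlations with an adjusted p of r under 0.05 kept their sign without the 2 farthest mice, on the wider arrays and as deviations from group means, the last chosen after seeing the data.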
